A study of Rattus norvegicus with 24 samples.

Results

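The extensor digitorum longus (EDL) is a fast muscle of the rat hindlimb that extends the toes, and its transcripts at 30 months of age were compared with those at 18 months. The comparison took all arrays of this muscle at these ages, 4 at 30 months and 4 at 18 months, so 8 of the 24 arrays of the series, and 8740 probe sets after the array's controls were left out. The other arrays held EDL at 6 months, which entered the fit as another age, and the extraocular muscles (EOM), which move the eye, at 6, 18 and 30 months, with 4 arrays in each group. All groups were Rattus norvegicus with no treatment or genotype named, and strain and sex are not given in the sources used here. Each array measured RNA pooled from 4 animals, per the series' design text, which calls the 4 replicates of a group independent, so the spread between arrays is a spread between pools. Values are intensities in arbitrary units from Affymetrix Rat Genome U34 arrays, where several short probes against the same transcript form a probe set and together give 1 value. Changes are given on a log2 scale as 30 minus 18 months, with the standard error (SE), and levels as mean ± SD over n = 4 arrays.

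The labelled muscle carried the transcripts of fast skeletal muscle. Acta1, the skeletal alpha-actin, averaged 40020 ± 6486 units at 30 months and 39800 ± 10030 at 18 months, and Myh4, the fast 2B myosin heavy chain, 18460 ± 2620 units at 30 months and 19590 ± 2776 at 18 months. Myh13, the extraocular myosin, lay at 98.3 ± 73.5 units at 30 months and 99.0 ± 13.6 at 18 months. The median signal of the 12 EDL arrays lay between 89.7 and 135.6 units, and the beta-actin 3'/5' ratio, a measure of RNA degradation, between 1.26 and 1.86 at 30 months and between 1.14 and 2.12 at 18 months. Replicate 1 at 30 months was the least like its group, with a median Spearman correlation to the other 3 of 0.877, against 0.903 to 0.927 for the 7 other arrays of the comparison. The first principal component, with 25.6% of the variance, separated replicates 1 and 2 from replicates 3 and 4 at all 3 ages. No label names a batch, so changes are also given within each of these pairs of replicates.

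A skeletal muscle fibre is controlled by the motor neuron that contacts it at the neuromuscular junction. In an innervated adult fibre the acetylcholine receptor is made by the few nuclei under the junction. When contact is lost, nuclei along the whole fibre transcribe receptor subunit genes through myogenic transcription factors such as myogenin, which bind the E-box CANNTG, and genes of growth arrest, protein breakdown and development are induced with them. Loss and remodelling of motor units in old hindlimb muscle is textbook knowledge of ageing in rodents.

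In EDL at 30 against 18 months nearly all of the called differences were rises. Of 5413 probe sets bright enough to test (another 3327 were too dim), 41 (0.757%) passed limma's test at an adjusted p under 0.05, 40 higher and 1 lower at 30 months. In 35 of them the rise was at least 2-fold. At an unadjusted p under 0.05 the counts were 258 higher and 120 lower. These probe sets stood for 3245 genes, each represented by its brightest probe set, of which 22 (0.678%) rose and 1 (0.0308%) fell. The median change of all genes was -0.03, with 1495 genes higher and 1750 lower, so the called rises stood against a background centred near 0. The share of 0.678% is the background for the counts of gene lists below. The lists were chosen with earlier results of these data known, so their counts and medians are not independent evidence. Called or not, 102 of the 3245 genes were higher at 30 months without overlap between the groups of arrays, and 50 were lower. Lack of overlap in an uncalled gene is therefore given below as a description only. In the genes named for the largest rises or the largest fall it was a condition of naming, so it adds no evidence there. The leading rises were those of acetylcholine receptor subunits, of genes known from denervated muscle, of embryonic and growth genes, and of tissue kallikrein.

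**Figure D1:**
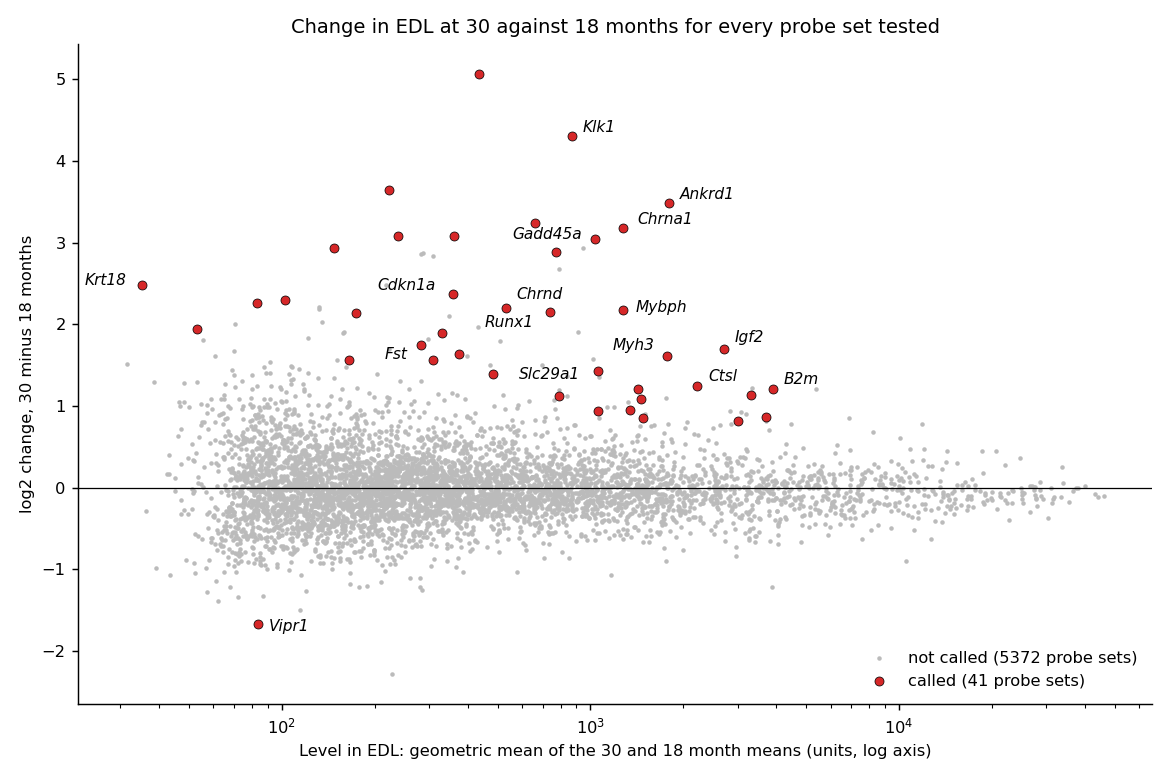
Change in EDL at 30 against 18 months (log2, vertical axis) against the level in EDL (geometric mean of the means at 30 and 18 months, units, log axis) for 5413 probe sets tested. Red points are the 41 called by limma, with 15 of the genes that rose and the 1 that fell labelled at their brightest probe set, and the topmost unlabelled point is a probe set without a gene symbol at 5.06.

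Among subunits of the muscle acetylcholine receptor, alpha and delta rose and the others did not pass. Chrna1 (Entrez gene 79557), the alpha subunit that binds acetylcholine, measured 5468, 4866, 2691 and 2703 units on replicates 1 to 4 at 30 months, against 400.3, 463, 481 and 318 units at 18 months. The lowest array at 30 months was more than 5 times as bright as the brightest at 18 months, and the groups did not overlap. Its mean was 3932 ± 1447 units at 30 months and 416 ± 73.4 at 18 months, a 9.09-fold rise (log2 change 3.18, SE 0.38, adjusted p = 0.000769). Chrnd (54240), the delta subunit, measured 1536, 1589.8, 601 and 961 units at 30 months, against 237, 242, 305 and 184 units at 18 months. Here too every array at 30 months exceeded every array at 18 months (log2 change 2.19, SE 0.43, adjusted p = 0.0282). The call of Chrnd was lost without replicate 1, 2 or 4 of either age, with adjusted p up to 0.141, while that of Chrna1 held whichever array was left out.

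The remaining subunits moved less. Chrnb1, the beta subunit, averaged 1191 ± 143 units at 30 months and 886 ± 127 at 18 months (log2 change 0.43, SE 0.18, adjusted p = 0.628). Chrne, the epsilon subunit of the adult receptor, averaged 626 ± 129 units at 30 months and 395 ± 162 at 18 months (log2 change 0.75, SE 0.31, adjusted p = 0.628). Chrng, the gamma subunit that takes the place of epsilon in fetal and denervated muscle, averaged 681 ± 158 units at 30 months and 468 ± 108 at 18 months (log2 change 0.54, SE 0.28, adjusted p = 0.803). All 3 were brighter on average at 30 months and none passed. Ache, the esterase that ends transmission, averaged 605 ± 43.3 units at 30 months, against 916 ± 263 at 18 months (log2 change -0.55, SE 0.28, adjusted p = 0.793). Of 11 tested genes of the receptor and junction list, out of 13 on the array, 2 rose and 0 fell, beside 0.678% of all genes that rose. The median change was 0.43. Without replicate 1 at 30 months 1 of 11 rose, with a median of 0.36.

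The promoters of these subunits are shown because receptor genes are known targets of E-box binding factors and only some of them passed the test. Each window runs from 250 bases before to 50 after the gene's start in the RefSeq table for build GRCr8, 5′ to 3′ on the gene's strand, with every E-box CANNTG in capitals. Chrna1 and Chrnd rose, and Chrnb1 and Chrne did not pass.
Chrna1 (chr3:78877304-78877603, minus strand): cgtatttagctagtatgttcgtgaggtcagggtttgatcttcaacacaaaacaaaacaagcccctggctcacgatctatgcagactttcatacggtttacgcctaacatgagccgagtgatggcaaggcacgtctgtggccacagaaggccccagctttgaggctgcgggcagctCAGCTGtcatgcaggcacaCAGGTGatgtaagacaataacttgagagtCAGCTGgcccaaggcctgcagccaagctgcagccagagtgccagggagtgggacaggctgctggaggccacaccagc
Chrnd (chr9:95310066-95310365, plus strand): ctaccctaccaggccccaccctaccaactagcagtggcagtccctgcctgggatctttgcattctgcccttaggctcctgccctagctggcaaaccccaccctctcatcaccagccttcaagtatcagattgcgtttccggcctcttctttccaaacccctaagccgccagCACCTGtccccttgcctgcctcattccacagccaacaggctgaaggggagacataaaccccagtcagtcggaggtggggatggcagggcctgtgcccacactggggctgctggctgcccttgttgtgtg
Chrnb1 (chr10:55015058-55015357, minus strand): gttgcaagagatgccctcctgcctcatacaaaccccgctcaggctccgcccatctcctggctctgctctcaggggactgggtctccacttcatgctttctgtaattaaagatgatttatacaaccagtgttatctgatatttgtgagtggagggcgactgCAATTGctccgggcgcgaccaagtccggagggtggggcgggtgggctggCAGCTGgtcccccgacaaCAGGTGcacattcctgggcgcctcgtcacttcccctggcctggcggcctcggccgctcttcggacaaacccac
Chrne (chr10:55834105-55834404, minus strand): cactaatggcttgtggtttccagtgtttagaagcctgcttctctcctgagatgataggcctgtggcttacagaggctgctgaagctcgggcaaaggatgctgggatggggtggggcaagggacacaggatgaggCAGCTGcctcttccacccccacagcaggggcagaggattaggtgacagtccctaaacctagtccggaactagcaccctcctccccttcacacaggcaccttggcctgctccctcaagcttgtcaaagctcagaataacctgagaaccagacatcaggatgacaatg
Chrna1 held 3 E-boxes, starting 75, 56 and 27 bases before the start, those at 75 and 27 bases of the myogenic form CAGCTG. Chrnd held 1, CACCTG, 79 bases before the start. Chrnb1 held 3, at 90, 41 and 23 bases, the one at 41 bases CAGCTG, and Chrne held 1, CAGCTG, at 116 bases. CANNTG reads as an E-box on both strands and CAGCTG is its own reverse complement. Of 33469 promoters in the table, 72.1% held at least 1 CANNTG and 15.1% a CAGCTG, so a match is common and describes the letters only.

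Genes known from denervated muscle had the largest median change of the 19 lists, a rank that is a description only, since the lists were chosen with earlier results known. Of 9 tested genes of that list, out of 10 on the array, 4 rose (Gadd45a, Ankrd1, Runx1 and Cdkn1a) and 0 fell, beside 0.678% of all genes that rose. The median change was 2.14, beside -0.03 over all genes. Without replicate 1 at 30 months 2 of 9 rose and the median was 2.01. Within replicates 1 and 2 the median was 2.63, and within replicates 3 and 4 it was 1.66. Gadd45a (25112), a stress-induced growth arrest gene, measured 4511, 3165, 1672 and 2700.1 units at 30 months, against 236, 433, 445 and 306 units at 18 months. The groups lay far apart, with the brightest arrays being replicate 1 at 30 months and replicate 3 at 18 months (log2 change 3.04, SE 0.32, 8.24-fold, adjusted p = 0.000433). Ankrd1 (27064), an ankyrin repeat protein that binds titin, measured 7628, 5175, 4640.2 and 5349 units at 30 months, against 494, 397, 1083 and 289 units at 18 months. Replicate 3 was the brightest at 18 months and still more than 4 times dimmer than the dimmest array at 30 months (log2 change 3.49, SE 0.49, 11.2-fold, adjusted p = 0.00363). A second probe set of Gadd45a rose as well (log2 change 3.23, adjusted p = 0.00363), and 2 others did not pass (1.90 and 2.11). The calls of Gadd45a and Ankrd1 at their brightest probe sets held whichever array was left out.

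Runx1 (50662), a transcription factor that denervation induces in muscle, measured 1942, 1359, 1733 and 999 units at 30 months, against 272, 252, 653 and 267 units at 18 months. Replicate 3 was high at 18 months, and the groups did not overlap (log2 change 2.14, SE 0.39, adjusted p = 0.0176). Its call was lost when 30-month replicate 1, 2 or 3 or 18-month replicate 1, 2 or 4 was left out, with adjusted p up to 0.0797. Cdkn1a (114851), the cell cycle inhibitor p21, measured 808, 655, 830.2 and 779.6 units at 30 months, against 84.6, 92.9, 263 and 230.1 units at 18 months. The arrays at 30 months were alike and those at 18 months fell into a dim pair, replicates 1 and 2, and a brighter pair (log2 change 2.37, SE 0.51, adjusted p = 0.0491). This call was lost when any 30-month array, 18-month replicate 1, 2 or 4, or 6-month replicate 2 was left out (adjusted p up to 0.172), though a second, dimmer probe set of Cdkn1a also rose (log2 change 3.65, adjusted p = 0.00363).

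Members of the list that did not pass included some with large differences. Ncam1, an adhesion molecule of developing and denervated fibres, measured 640, 718, 843 and 681 units at 30 months, against 68, 46, 316 and 102 units at 18 months (log2 change 2.84, SE 0.68, adjusted p = 0.0815), without overlap, while its other probe set averaged 151.5 ± 46.5 units at 30 months and 155.4 ± 54.8 at 18 months. Trim63, the ubiquitin ligase MuRF1 that marks sarcomere proteins for breakdown, averaged 4321 ± 1433 units at 30 months and 2191 ± 139 at 18 months (log2 change 0.92, SE 0.26, adjusted p = 0.188). Csrp3, a LIM protein of the Z-disc, averaged 3353 ± 1564 units at 30 months and 2069 ± 1228 at 18 months (log2 change 0.77, SE 0.58, adjusted p = 0.905). Prkar1a, a regulatory subunit of protein kinase A, stood at 0.42 (SE 0.19) with adjusted p = 0.693. Gdnf, a survival factor for motor neurons, was the 1 member of the list with a lower mean log2 level at 30 months (log2 change -0.34, SE 0.51, adjusted p = 0.965).

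**Figure D2:**
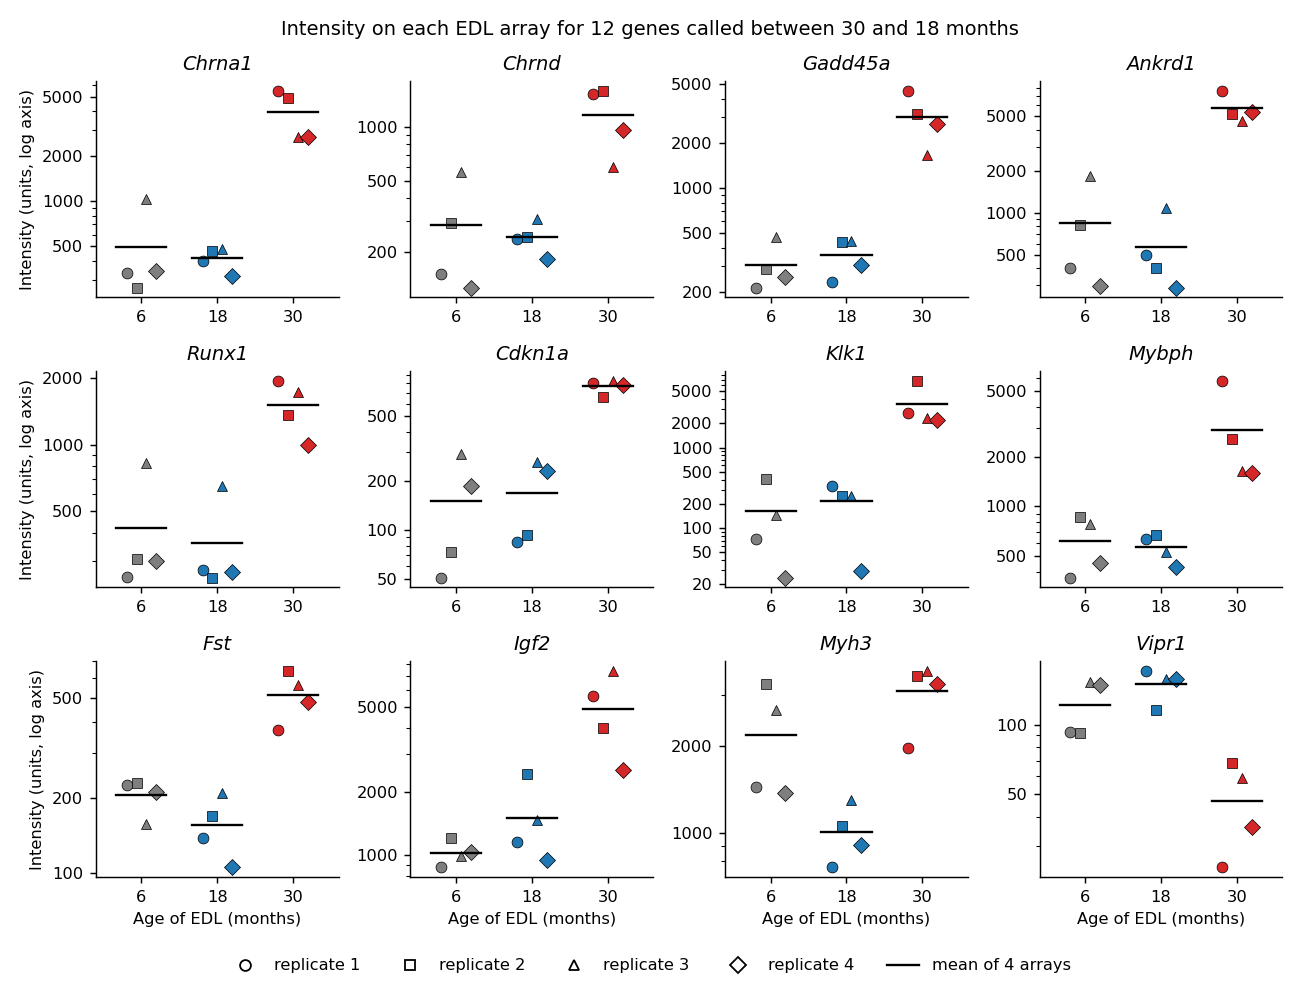
Intensity (units, log axis) on each EDL array at 6, 18 and 30 months for 12 genes called at 30 against 18 months, with a symbol for each replicate and a bar at the mean of 4 arrays. In each panel the 4 arrays at 30 months lie clear of the 4 at 18 months, above them for 11 genes and below them for Vipr1. This separation was a condition for naming these genes, so it is no separate evidence.

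Among 28 tested myogenic regulators and growth genes 3 rose (Fst, Igf2 and Cdkn1a) and 0 fell, beside 0.678% of all genes that rose. Their median change was 0.09, beside -0.03 over all genes. Cdkn1a is a member of this list and of the denervation list. Fst (24373), follistatin, which binds and blocks myostatin and activins, measured 372, 642, 566 and 481 units at 30 months, against 138, 169, 208 and 105 units at 18 months. The dimmest array at 30 months, replicate 1, was above the brightest at 18 months (log2 change 1.75, SE 0.27, adjusted p = 0.0066), and the call held whichever array was left out. A second probe set of Fst also rose (log2 change 3.08, adjusted p = 0.0238). Igf2 (24483), a growth factor of fetal and regenerating muscle, measured 5643, 3972, 7406 and 2534 units at 30 months, against 1152, 2414, 1467 and 948 units at 18 months. The groups were separated by a small gap, between replicate 4 at 30 months and replicate 2 at 18 months (log2 change 1.69, SE 0.32, adjusted p = 0.0231). Both dimmer probe sets of Igf2 showed no such difference (log2 change -0.39 and 0.05), and the call was lost when 30-month replicate 1, 2 or 3 or 18-month replicate 1 or 4 was left out (adjusted p up to 0.105).

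Myog, encoding myogenin, did not pass with the 12 EDL arrays, although its arrays did not overlap. It measured 2682, 3123, 1766 and 1820.5 units at 30 months, against 315, 555, 584 and 78.3 units at 18 months, where replicate 4 was low (log2 change 2.93, SE 0.77, adjusted p = 0.131). It passed with only the 8 arrays of both ages (adjusted p = 0.016) and with all 24 arrays (adjusted p = 0.0107). At 6 months its arrays were also spread, with 71.7, 567, 954 and 94.3 units. Myf6, another myogenic factor, averaged 3130 ± 796 units at 30 months and 2090 ± 179.6 at 18 months (log2 change 0.55, SE 0.20, adjusted p = 0.469). Ccnd1, the cyclin D1 of cell cycle entry, averaged 188 ± 53 units at 30 months and 298 ± 68.8 at 18 months (log2 change -0.68, SE 0.28, adjusted p = 0.605).

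Among genes of the contractile apparatus, an embryonic myosin and a myosin-binding protein rose. Myh3 (24583), the embryonic myosin heavy chain, measured 1968, 3492, 3653 and 3292 units at 30 months, against 759, 1055, 1296 and 910.4 units at 18 months. Replicate 1 was the low array at 30 months and still above all arrays at 18 months (log2 change 1.61, SE 0.30, adjusted p = 0.0192). Myh3 is read by 4 further probe sets, of which 1 rose (log2 change 2.26, adjusted p = 0.0487) and 3 did not pass (2.86, 0.58 and -0.28). The call was lost when 30-month replicate 2, 3 or 4 or 18-month replicate 1, 2 or 4 was left out (adjusted p up to 0.086). Mybph (83708), myosin-binding protein H, measured 5788, 2575, 1629 and 1601 units at 30 months, against 633, 663, 527 and 429 units at 18 months. Replicate 1 at 30 months was more than 2 times as bright as any other array (log2 change 2.17, SE 0.38, adjusted p = 0.0153), and without it the change was 1.77 (adjusted p = 0.0261). That call was lost when 30-month replicate 2 or 18-month replicate 4 was left out (adjusted p up to 0.0693). The second probe set of Mybph rose too (log2 change 2.89, adjusted p = 0.017).

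The other genes of both sarcomere lists did not pass at their brightest probe sets. Of 13 slow, cardiac and developmental sarcomere genes 1 rose (Myh3), 0 fell, and the median change was -0.15. Myh7, the slow myosin, averaged 8778 ± 2150 units at 30 months and 10750 ± 4745 at 18 months (log2 change -0.19, SE 0.43, adjusted p = 0.982). Of 18 fast sarcomere genes 0 rose and 0 fell, and 16 had a lower mean log2 level at 30 months (median change -0.13). Over all genes 1750 of 3245 were lower (median -0.03). Genes of a list are read on the same arrays, so their shared sign is a description only. Mylk2, the kinase of skeletal myosin light chain, had the smallest p of any uncalled gene that was lower, with 1706, 2526, 2159 and 2517 units at 30 months and 3418, 4463, 3830.2 and 4142 at 18 months. These groups did not overlap either (log2 change -0.84, SE 0.23, adjusted p = 0.175), as was so for 50 of all 3245 genes on the lower side.

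Tissue kallikrein rose, and its arrays spread widely. Klk1 (24523), tissue kallikrein, a serine protease that releases kinins, measured 2710.4, 6755, 2351 and 2219.9 units at 30 months, against 336, 248, 250.1 and 29 units at 18 months. Replicate 2 was the brightest at 30 months and replicate 4 was below the floor of its array at 18 months, and the groups did not overlap (log2 change 4.31, SE 0.81, adjusted p = 0.0216). The call was lost when 30-month replicate 1, 2 or 4 or 18-month replicate 2 or 4 was left out (adjusted p up to 0.104), and without 18-month replicate 4 the change was 3.51. Klk1 belongs to a family of near-identical kallikrein genes in the rat, and the suffix of this probe set marks an incomplete set of probes. A second Klk1 probe set with the suffix for a gene family, at 804.5, 1483, 973.5 and 881.5 units at 30 months, against 76.7, 159.5, 176.1 and 93.2 units at 18 months, rose as well (log2 change 3.08, adjusted p = 0.000433). Klk1c3, a paralog also read by a family probe set, averaged 287 ± 83.3 units at 30 months and 94.8 ± 16.9 at 18 months (log2 change 1.57, SE 0.30, adjusted p = 0.0224), a call lost when 30-month replicate 2, 3 or 4 or 18-month replicate 1, 2 or 4 was left out (adjusted p up to 0.107). These 3 probe sets can share transcripts, so their rises are not independent of each other.

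Krt18 (294853), a keratin of simple epithelia, measured 198, 255, 139 and 98.6 units at 30 months, against 7, 2.5, 13.4 and 6 units at 18 months. All 4 arrays at 18 months lay under the floor set at the 25th percentile (log2 change 2.48, SE 0.40, adjusted p = 0.00845), so the size of its rise depends on that floor. The change was 3.94 with the floor at the 10th percentile and 1.24 with it at the 40th, where the call was lost (adjusted p = 0.0743), as it was without replicate 2 at 30 months (adjusted p = 0.0535). Krt8, the partner keratin of Krt18, averaged 129 ± 54.9 units at 30 months and 23.8 ± 23.5 at 18 months (log2 change 1.81, SE 0.44, adjusted p = 0.0899). Of 8 tested markers of gland and skin epithelium 2 (Klk1 and Krt18) rose and 0 fell, beside 0.678% of all genes that rose. The summed intensity of the 12 markers on the array was 3262 to 7720 units at 30 months and 750.6 to 1383 at 18 months. Without both called genes the sums overlapped, at 709.5 to 951.5 units at 30 months and 499.6 to 1040 at 18 months. Over the 8 tested markers 6 had a higher mean log2 level at 30 months, beside 1495 of all 3245 genes, with a median change of 0.76. Krt18 was bright enough to test only through its arrays at 30 months. The counts and the median of the tested markers thus hold a gene admitted for being high at that age, and they are a description only. Cldn3, a claudin of tight junctions, averaged 129 ± 60.9 units at 30 months and 62.6 ± 24.8 at 18 months (log2 change 0.99, SE 0.46, adjusted p = 0.704). Krt5, a keratin of basal epithelium, lay at the floor on all 4 arrays at 30 months, and its partner Krt14 averaged 105 ± 31 units at 30 months and 109 ± 56.9 at 18 months. In RNA of a whole muscle, more cells of a type and more RNA per cell cannot be told apart. The part of epithelial cells in these rises was not tested.

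Sums of the other marker lists overlapped between the ages. The 11 markers of the muscle fibre summed to 244100 to 311100 units at 30 months and 257700 to 359500 at 18 months, with 0 called. Those of the Schwann cell and nerve summed to 3214 to 4170 units at 30 months and 3136 to 4183 at 18 months, and those of the macrophage to 1098 to 1461 units at 30 months and 668.2 to 1339 at 18 months. The T and B lymphocyte markers summed to 585.0 to 973.3 units at 30 months and 526.7 to 1022 at 18 months, with Cd8a and Cd2 at the floor on all 4 arrays at 30 months. Of 19 tested genes of macrophages, complement and inflammation 0 rose and 0 fell, with a median change of -0.02.

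The lists of protein breakdown and of antigen presentation each held 1 gene called at its brightest probe set. Ctsl (25697), the lysosomal protease cathepsin L, measured 4102, 3584, 3074 and 2856 units at 30 months, against 1369.8, 1119, 1680.4 and 1606 units at 18 months. The spread within each age was narrow beside the gap between them (log2 change 1.24, SE 0.19, adjusted p = 0.00477), and the call held whichever array was left out. A dimmer probe set of Ctsl did not pass (log2 change 0.76, SE 0.21, adjusted p = 0.19). Another probe set named after the same sequence as that dimmer one, but without a gene symbol, rose (log2 change 1.90, adjusted p = 0.00363). Of 38 genes of the ubiquitin, proteasome, cathepsin and calpain list Ctsl was the 1 that rose, 0 fell, and the median change was 0.12. B2m (24223), which pairs with the heavy chains of class I molecules, measured 5886, 6751, 6128 and 4857 units at 30 months, against 2470.3, 2406, 3291 and 2143 units at 18 months. Every array at 30 months was above every array at 18 months (log2 change 1.20, SE 0.22, adjusted p = 0.017), with the call lost when 30-month replicate 1, 2 or 3 or 18-month replicate 1, 2 or 4 was left out (adjusted p up to 0.0783). B2m was the 1 of 18 tested genes on the list of antigen presentation and interferon response that rose, and 0 fell. On this list 14 had a higher mean log2 level at 30 months (median change 0.47), beside 1495 of all 3245 genes. RT1-A, a class I heavy chain that is not on this list, also rose (log2 change 0.86, SE 0.15, adjusted p = 0.0166). RT1-Da, a class II chain, averaged 1435 ± 348 units at 30 months and 790.4 ± 157 at 18 months (log2 change 0.85, SE 0.33, adjusted p = 0.57). Psmb8, a subunit of the immunoproteasome, averaged 219 ± 42.4 units at 30 months and 99.3 ± 60.3 at 18 months (log2 change 1.34, SE 0.49, adjusted p = 0.468).

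The remaining rises under the naming rule were those of Slc29a1, Emb and Rpl3. Slc29a1 (63997), a nucleoside transporter of the cell membrane, measured 1826, 2314, 1184 and 1687 units at 30 months, against 688, 646, 674 and 548 units at 18 months. The 18-month arrays were tightly grouped (log2 change 1.42, SE 0.21, adjusted p = 0.00392), and the call held whichever array was left out. Emb (114511), embigin, a cell-surface glycoprotein, measured 1142, 729, 302 and 598 units at 30 months, against 179, 163, 242 and 230.2 units at 18 months. Replicate 3 at 30 months lay just above the 18-month arrays (log2 change 1.63, SE 0.34, adjusted p = 0.0416), and the change stood at 2.42 in replicates 1 and 2 alone and at 0.85 in replicates 3 and 4 alone. The call of Emb was lost when 30-month replicate 1, 2 or 4, any 18-month array, or 6-month replicate 1 or 2 was left out (adjusted p up to 0.161), though a second, dimmer probe set also rose (log2 change 2.94, adjusted p = 0.00398). Rpl3, a ribosomal protein read by an incomplete probe set, averaged 3985 ± 308 units at 30 months and 2272 ± 359 at 18 months (log2 change 0.82, SE 0.17, adjusted p = 0.0382), and it was the 1 of 44 ribosomal and translation genes that rose (0 fell, median change 0.04). That call was lost when any 30-month array, 18-month replicate 1, 2 or 4, or 6-month replicate 1 was left out (adjusted p up to 0.14). A dimmer probe set of Rpl3 did not pass (log2 change 1.10, adjusted p = 0.0711).

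Named after their values were seen, the other 4 genes that rose were Zfp36l1, RT1-A, Tuba1b and Scd2. Zfp36l1, a protein that directs the decay of AU-rich messenger RNAs, averaged 2113 ± 247 units at 30 months and 999 ± 109.7 at 18 months (log2 change 1.08, SE 0.18, adjusted p = 0.0132). RT1-A, a class I heavy chain read by a family probe set, averaged 5017 ± 724 units at 30 months and 2748 ± 279.7 at 18 months (log2 change 0.86, SE 0.15, adjusted p = 0.0166). Tuba1b, an alpha-tubulin, averaged 4891 ± 1064 units at 30 months and 2231 ± 456 at 18 months (log2 change 1.13, SE 0.24, adjusted p = 0.0473). Scd2, a fatty acid desaturase, averaged 797 ± 278 units at 30 months and 294 ± 59.1 at 18 months (log2 change 1.40, SE 0.30, adjusted p = 0.0473). Dimmer probe sets of Scd2 did not pass (log2 change 1.32, 1.02, 1.09 and -0.11), nor did another of Zfp36l1 (0.71). The call of Zfp36l1 was lost when 30-month replicate 2 or 18-month replicate 1 or 4 was left out (adjusted p up to 0.0642), and that of RT1-A when 30-month replicate 2 or 4 or 18-month replicate 1 or 2 was left out (up to 0.0739). Those of Tuba1b and Scd2 were lost when any array of either age was left out, and also without 6-month replicate 1, for Scd2 without 6-month replicate 4 too (up to 0.188). A further 4 genes, also named after their values were seen, rose only on a probe set other than their brightest: the tetraspanin Cd82 (log2 change 2.14, adjusted p = 0.0148, and 0.91, adjusted p = 0.28 on its brightest), the ubiquitin hydrolase Uchl1 (1.94 on the called probe set, adjusted p = 0.0491), the acyl-CoA synthetase Acsl4 (1.56, adjusted p = 0.0342) and the lipid phosphatase Plpp1 (0.95, adjusted p = 0.0282). The brightest probe sets of the last 3 stood at 0.88, 0.86 and 0.80 and did not pass. The called probe set of Uchl1 lay at or under the floor on 3 of 4 arrays at 18 months, so the size of its rise depends on that floor. Another probe set of Uchl1 did not pass either (1.39, adjusted p = 0.387).

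Of the 41 called probe sets 7 carried no single gene symbol. The largest change on the array was that of AF030089UTR#1_at, chosen here after its values were seen, with no symbol in the platform annotation. It measured 3913, 3509, 1119.8 and 1631 units at 30 months, against 54.7, 91.4, 134.8 and 18.7 units at 18 months (log2 change 5.06, SE 0.57, adjusted p = 0.000566). The dimmest array at 30 months was more than 8 times as bright as the brightest at 18 months.

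Vipr1 was the 1 gene that fell. Vipr1 (24875), a receptor for vasoactive intestinal peptide, measured 24.2, 68.3, 59 and 36 units at 30 months, against 171, 116, 157 and 158 units at 18 months. All arrays at 30 months were dimmer, and replicate 1 there lay under the floor (log2 change -1.67, SE 0.35, adjusted p = 0.0416). Its level was near the limit for testing, and its call held in 1 of the 12 fits that left out 1 array, the fit without replicate 3 at 6 months, with adjusted p up to 0.133 in the others. The call was also lost with the floor at the 10th or 40th percentile, with no filter, with only the 8 arrays and with all 24 arrays (adjusted p up to 0.101), and the change was -0.995 with the floor at the 40th percentile. The next smallest p-values among lower genes, after Mylk2, were those of the serotonin receptor Htr6 (75.5 ± 67.6 units at 30 months and 173 ± 48.2 at 18 months, adjusted p = 0.295), the phosphatase Ptp4a1 (log2 change -0.58, adjusted p = 0.304) and the lipoprotein receptor Vldlr (-0.57, adjusted p = 0.335). Vldlr measured 319, 368, 372 and 302 units at 30 months and 486, 515, 502 and 507 at 18 months, without overlap. Lower values without overlap were seen in 50 of all 3245 genes. Klhdc3, Pde4a, Ckmt2, Misfal and Kalrn followed, with log2 changes of -0.56, -0.63, -0.41, -1.27 and -0.66 and adjusted p between 0.336 and 0.409.

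Genes of energy metabolism had small differences, most of them negative and none called at its brightest probe set. Of 32 oxidative phosphorylation genes 0 rose and 0 fell, 25 had a lower mean log2 level at 30 months, and the median change was -0.19. Of 37 genes of fatty acid oxidation and the TCA cycle 32 were lower in the same sense (median -0.19), with Mdh1, a malate dehydrogenase, at -0.36 (SE 0.14) and adjusted p = 0.587. The 24 genes of glycolysis and glycogen had a median of -0.15, with Pfkm, muscle phosphofructokinase, at -0.40 (SE 0.22) and adjusted p = 0.835. The 25 genes of calcium handling and excitation had a median of -0.13, with Cacna1s, the calcium channel that senses voltage in the fibre, at -0.38 (SE 0.18) and adjusted p = 0.747. All genes together had a median of -0.03, with 1750 of 3245 lower. Genes of a list are read on the same arrays, so their shared sign is a description only. Ckmt2, the mitochondrial creatine kinase of muscle, measured 12973, 11208, 10934 and 10286 units at 30 months, against 15260, 15388, 14053 and 15487 units at 18 months, without overlap (adjusted p = 0.398). It was 1 of 50 genes among all 3245 that were lower without overlap.

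Stress and matrix genes did not pass. Of 31 antioxidant and detoxification genes 0 rose and 0 fell, with a median change of 0.20, and the smallest p-values were those of Gpx3, a secreted glutathione peroxidase (log2 change 1.22, SE 0.28, adjusted p = 0.0712), and Gstt1, a glutathione transferase (log2 change 1.61, SE 0.38, adjusted p = 0.0744). Gpx3 measured 8833, 4862, 3002 and 4199.7 units at 30 months and 2017, 1449.8, 2512 and 2526 at 18 months, without overlap. Higher values without overlap were seen in 102 of all 3245 genes. Of 27 heat shock and folding genes 0 were called (median 0.01), of 36 extracellular matrix genes 0 (median 0.16), of 27 immediate early genes 0 (median 0.22), of 9 clock genes 0 (median -0.24) and of 18 genes of creatine, amino acid and nucleotide metabolism 0 (median -0.11). In the last of these lists Ampd3, an AMP deaminase, measured 873, 942, 526 and 502 units at 30 months, against 90.2, 206, 139 and 26.5 units at 18 months, again without overlap (log2 change 2.87, SE 0.64, adjusted p = 0.0565). Sgk1, a kinase induced by glucocorticoids, averaged 531 ± 115 units at 30 months and 239 ± 51.8 at 18 months (log2 change 1.15, SE 0.26, adjusted p = 0.0575). Mgp, matrix Gla protein, averaged 3176 ± 393 units at 30 months and 1958 ± 486 at 18 months (log2 change 0.73, SE 0.20, adjusted p = 0.141).

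**Figure D3:**
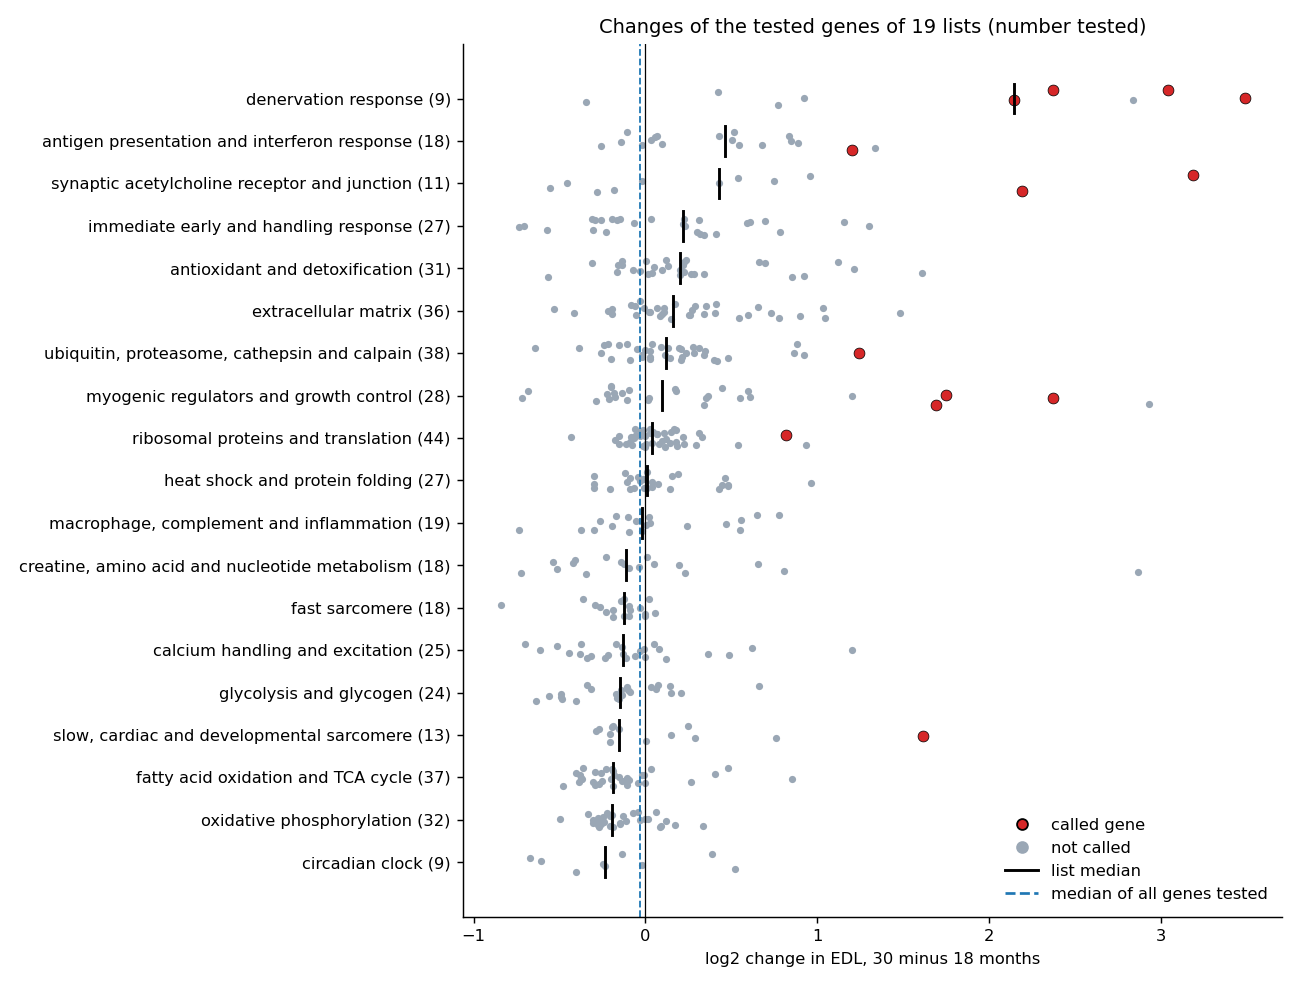
Log2 change in EDL, 30 minus 18 months, of every tested gene of 19 lists, 1 point per gene, called genes in red, with a bar at the list's median and a dashed line at the median of all genes tested (-0.03). The denervation response stands at the top with a median of 2.14, and the lists of energy metabolism lie between -0.15 and -0.19 with no called gene. The lists were chosen with earlier results of these data known.

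The changes were then compared with those of EOM over the same ages. The test of the difference, EDL change minus EOM change, called 19 of 5741 probe sets (0.331%), of which 17 had the larger change in EDL and 2 in EOM. Ankrd1 changed by 3.49 (SE 0.49) in EDL and -0.01 (SE 0.40) in EOM, a difference of 3.50 (SE 0.57, adjusted p = 0.00204). For Chrna1 the changes were 3.18 (SE 0.38) in EDL and 0.04 (SE 0.30) in EOM, and the difference 3.15 (SE 0.42, adjusted p = 0.000184). The level of Chrna1 in EOM was 1771 ± 197 units at 30 months and 1720 ± 46.1 at 18 months, so EDL lay above EOM at 30 months and below it at 18 months. Gadd45a differed by 2.81 (SE 0.36, adjusted p = 0.000179), with 1847 ± 308 units at 30 months and 1558 ± 48 at 18 months in EOM. Chrnd differed by 2.18 (SE 0.48, adjusted p = 0.0372), and its EOM levels were 1188 ± 103 units at 30 months and 1174 ± 85.8 at 18 months. Igf2 differed by 1.71 (SE 0.36, adjusted p = 0.0308), Fst by 1.61 (SE 0.33, adjusted p = 0.0246) and Slc29a1 by 1.44 (SE 0.25, adjusted p = 0.00496).

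Myh3, which EOM expresses throughout life, stood at 27140 ± 5503 units in EOM at 30 months and 30190 ± 6416 at 18 months, and its change differed by 1.77 (SE 0.38, adjusted p = 0.0335). Ctsl differed by 1.40 (SE 0.23, adjusted p = 0.00204) and B2m by 1.20 (SE 0.26, adjusted p = 0.0372). Thus 10 of the 23 called genes also passed the test of the difference. These 23 were picked for their change on the same EDL arrays, which favours a larger change in EDL. Their count and direction are therefore a description only. For the other 13 a difference between muscles was not called at the brightest probe set, and among them Klk1 differed by 3.34 (SE 0.91, adjusted p = 0.158), with 4748 ± 1347 units at 30 months and 2424 ± 653 at 18 months in EOM, Mybph by 1.93 (SE 0.44, adjusted p = 0.0506) and Runx1 by 2.08 (SE 0.49, adjusted p = 0.0629). The family probe set of Klk1 did pass, with a difference of 2.45 (SE 0.36, adjusted p = 0.000908), and so did the unnamed AF030089UTR#1_at (5.24, adjusted p = 0.000179). The 2 probe sets with the larger change in EOM, named after their values were seen, were those of C3, complement component C3 (log2 change 0.00 in EDL and 2.77 in EOM, adjusted p of the difference 0.00734), and Xylt2, a xylosyltransferase (-0.56 and 1.78, adjusted p of the difference 0.0257). With each muscle weighted by its own spread, since EDL arrays varied more among themselves, 25 probe sets were called.

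**Figure D4:**
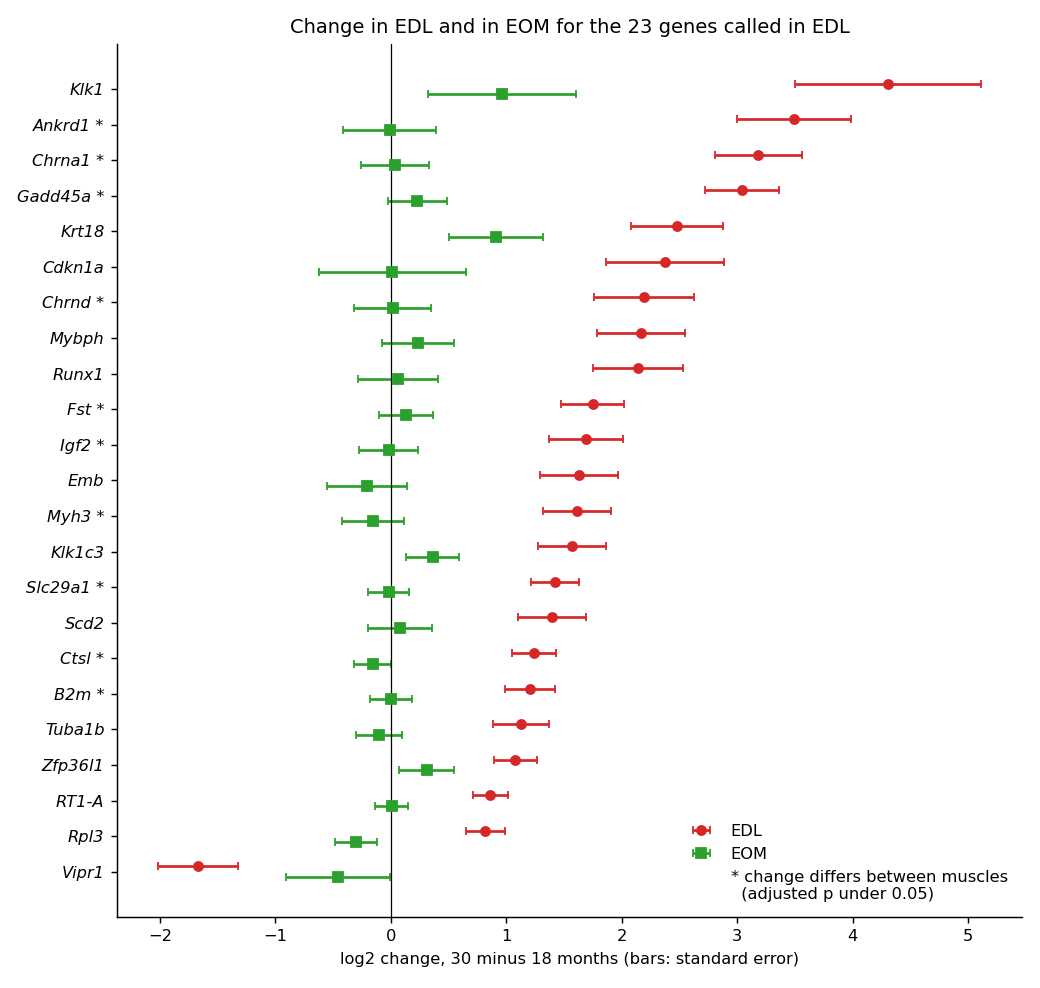
Log2 change from 18 to 30 months, with its standard error, in EDL (red circles) and EOM (green squares) for the 23 genes called in EDL, ordered by the EDL change. For the 10 starred genes the 2 changes differ (adjusted p under 0.05), and the EOM changes of all 23 lie between -0.45 and 0.97. The 23 were picked for their change in EDL, which favours the larger change there.

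Between 18 and 6 months 0 probe sets rose and 1 fell in EDL, with 274 at an unadjusted p under 0.05. Limma's test of the late change (30 minus 18 months) less the early change (18 minus 6 months) called 0 of 5413 probe sets (0%), with 306 at an unadjusted p under 0.05 and a smallest adjusted p of 0.102. The 6-month arrays had actin ratios of 1.16 to 3.54. Chrna1 averaged 494 ± 361 units at 6 months, and it changed by -0.04 (SE 0.38) between 18 and 6 months, so the late change exceeded the early one by 3.22 (SE 0.65, adjusted p = 0.106). Gadd45a averaged 306 ± 112 units at 6 months, and its late change exceeded the early one by 2.81 (SE 0.56, adjusted p = 0.106). For Ankrd1, at 843 ± 712 units at 6 months, the excess was 3.88 (SE 0.86, adjusted p = 0.179). Of the 40 probe sets that rose at 30 against 18 months 24 had a negative early change, among them those of Myh3 and Zfp36l1. Myh3 averaged 2190 ± 942, 1005 ± 228 and 3101 ± 769.7 units at 6, 18 and 30 months, with an early change of -1.05 (SE 0.30) that did not pass (adjusted p = 0.548) and an excess of 2.66 (SE 0.51, adjusted p = 0.106). Zfp36l1 averaged 1640 ± 318, 999 ± 109.7 and 2113 ± 247 units at these ages, with an early change of -0.70 (SE 0.18) that did not pass (adjusted p = 0.427) and an excess of 1.78 (SE 0.32, adjusted p = 0.102). All 40 had a higher mean at 30 than at 6 months, and in 34 every array at 30 months was above every array at 6 months. These 40 were picked for being bright at 30 months and dim at 18 months, which favours such counts and that of negative early changes. The same counts over all probe sets tested are not given here, so these are a description only. The comparisons between ages also share arrays, so they are not independent.

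Calls came and went with single arrays. No called gene changed direction in any fit, but where groups do not overlap a fit to fewer arrays has to keep the sign. Leaving out 1 array at a time gave 13 to 49 called probe sets beside the 41 with all arrays. There were 21 without replicate 1 at 30 months, 13 without replicate 2 and 24 without replicate 4, and 17, 23 and 15 without replicates 1, 2 and 4 at 18 months. Of the 23 called genes 6 (Ankrd1, Chrna1, Gadd45a, Fst, Slc29a1 and Ctsl) were called in all 12 of these fits. Each of the 23 changed in the same direction within replicates 1 and 2 as within replicates 3 and 4. Without overlap between the groups no other outcome was possible, so this is no evidence of repeatability. The change was larger within replicates 1 and 2 for 17 of the 23. Chrna1 changed by 3.58 within replicates 1 and 2 and by 2.79 within replicates 3 and 4, Ankrd1 by 3.83 and 3.15, and Gadd45a by 3.56 and 2.52. Klk1 was among those with the larger change in replicates 3 and 4, at 3.89 within replicates 1 and 2 and 4.73 within replicates 3 and 4. A fit to replicates 1 and 2 alone called 18 probe sets, 13 of them among the 41, and a fit to replicates 3 and 4 alone called 0, with 209 at an unadjusted p under 0.05. With the pair of replicates as a block, 57 were called, among them all 41.

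Some calls also turned on a processing choice. Without limma's intensity trend the calls of Chrnd, Igf2, Myh3, B2m, Emb, Cdkn1a, Rpl3, RT1-A, Tuba1b and Scd2 were lost, with adjusted p of 0.0514 for Myh3 to 0.103 for Rpl3 and Tuba1b. With no filter on low values those of Cdkn1a, Emb, Klk1c3, Vipr1, Rpl3, Tuba1b and Scd2 were lost (adjusted p up to 0.0926), and with median centring those of Rpl3, Zfp36l1, RT1-A and Tuba1b (up to 0.108). Cdkn1a was not called with the floor at the 10th percentile (0.0522) or with all 24 arrays (0.0633), Emb with only the 8 arrays (0.0589), or Tuba1b with array weights (0.0513). Of the genes given above as not passing, Mylk2, Myog, Gpx3, Gstt1, Trim63, Sgk1 and Ampd3 passed with all 24 arrays, with adjusted p of 0.00142 for Ampd3 to 0.034 for Gpx3.

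**Figure D5:**
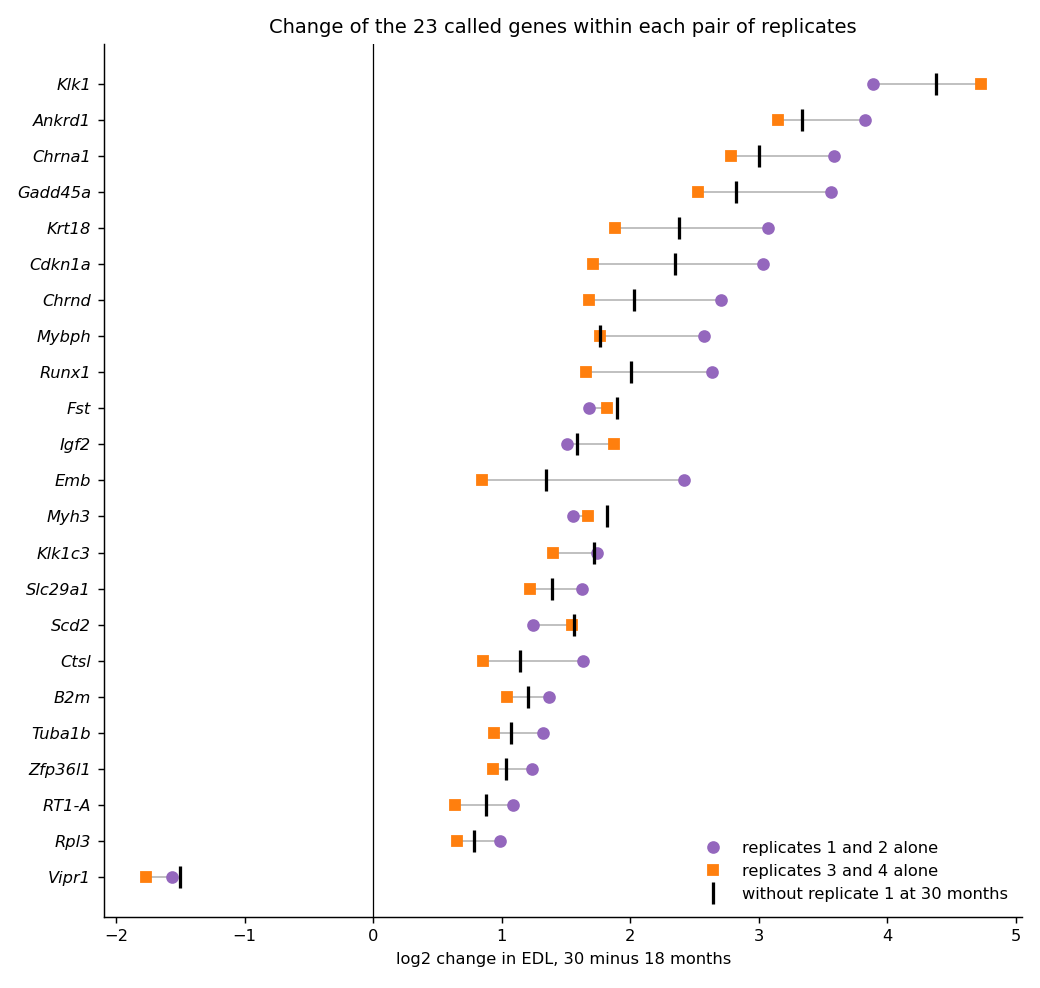
Log2 change in EDL, 30 minus 18 months, of the 23 called genes from replicates 1 and 2 alone (circles), replicates 3 and 4 alone (squares) and all arrays but replicate 1 at 30 months (bars). Every gene keeps its sign, as it must where the groups of arrays do not overlap, and Emb, at 2.42 and 0.85, moves furthest between the pairs.

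The study's own criterion, as its design text gives it, asked for difference calls in all pairwise comparisons and an average change above 2. Its nearest form on these values, with no overlap between the 2 groups of arrays and a ratio of means above 2, held for 92 probe sets, 89 higher (1.64%) and 3 lower (0.0554%) at 30 months. It is a description with no test. Of the 41 probe sets called by limma 36 also met it, and none of the 41 had overlapping groups.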

How the data were processed

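RNA of EDL and EOM at 6, 18 and 30 months was measured on 24 one-colour Affymetrix arrays, 4 per group, each holding RNA pooled from 4 animals. The deposited intensities are MAS5 signals per probe set, per the submitters' processing notes and the design text (Microarray Suite 5.0), and each array's trimmed mean was near 501 units. Their number limits the precision, and p-values measure the spread between pools. Of 8799 probe sets 59 controls were left out, which leaves 7006 with 1 gene symbol, 308 with several and 1426 with none in the platform annotation.

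Here each intensity was raised to its array's 25th percentile where lower and taken as log2. Probe sets above the 40th percentile on at least 3 of 4 arrays of an EDL age were tested with limma 3.58.1 in R 4.3.3 (12 EDL arrays, 3 ages, 9 residual degrees of freedom, intensity trend, Benjamini-Hochberg adjustment over 5413, adjusted p under 0.05). EOM arrays stayed out of this fit because EDL varied more, and entered only the test of the difference between muscles (24 arrays, 18 residual degrees of freedom). A gene is read from its brightest tested probe set. Named are up to 15 called genes per direction with the largest change whose arrays did not overlap and whose brighter group lay above the median of all EDL values, genes of the smallest p to fill 10 in a direction, and each list's called members with up to 4 of smallest p. Genes outside this rule that complete a list, such as Ncam1, Chrng, Ache and Cldn3, were chosen after their values were seen.

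The groups compared, the 19 gene lists and the 11 marker lists were chosen with earlier results of these data known, so a list's direction is not independent evidence. Within EDL, same-numbered arrays at 30 and 18 months did not all deviate together (correlations 0.0468, 0.298, 0.358 and 0.393), so numbers were not used as a block. Alternatives covered the floor, filter, normalization, arrays in the fit, weights, moderation, the block and leaving out each array. The fits were tested on simulated data. Promoters come from RefSeq, build GRCr8.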

Additional observations from a re-analysis of the deposited data

Results flagged for a closer look

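Single arrays far from the other 3 of their group were looked for in 186 groups of 4 values of the named genes, of which chance gives about 1 in 20. There were 18. Among genes called at 30 against 18 months, Klk1 was low on replicate 4 at 18 months (29.0 units, against 248.5 to 335.7 on the others), Runx1 high on replicate 3 at 18 months (652.7, others 251.6 to 272.5) and Myh3 low on replicate 1 at 30 months (1968.2, others 3291.5 to 3653.4).

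The other 15 concern uncalled genes. At 30 months Chrne was low on replicate 3 (433.8 units, others 680.3 to 697.0), Atp1b1 low on replicate 1 (3764.9, others 5178.2 to 5507.7), Pfkfb1 high on replicate 2 (1441.2, others 868.7 to 922.6) and Hspa4 low on replicate 2 (363.5, others 777.7 to 891.0). Uchl1 was high on replicate 4 (320.4, others 192.7 to 209.4), Lamp2 low on replicate 4 (561.2, others 985.7 to 1049.2), Lum high on replicate 3 (644.1, others 225.3 to 259.5) and Psmb8 high on replicate 1 (282.4, others 194.6 to 203.8). At 18 months Ckmt2 was low on replicate 3 (14053.2 units, others 15259.5 to 15487.3), Pfkm high on replicate 4 (33006.4, others 23129.4 to 24558.1) and Hspb1 high on replicate 2 (13451.2, others 8950.8 to 9366.9). Lum was low on replicate 3 (60.9, others 195.2 to 208.3), Cfd high on replicate 3 (917.5, others 312.3 to 374.1), Sgk1 low on replicate 4 (161.6, others 259.7 to 270.7) and Gamt high on replicate 1 (779.9, others 496.4 to 518.3).

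Changes that differed between muscles by limma's test (EDL minus EOM, log2, 30 against 18 months) were those of Ankrd1 (3.50), Chrna1 (3.15), Gadd45a (2.81), Chrnd (2.18), Myh3 (1.77), Igf2 (1.71), Fst (1.61), Slc29a1 (1.44), Ctsl (1.40) and B2m (1.20). In each the change was the larger in EDL, which picking genes by their EDL change favours.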

How the results depend on the processing

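The count of 41 called probe sets lay between 29 and 57 under the other floors, filters, normalizations, weights, moderation settings and blocks and with only the 8 arrays of both ages. It was 89 with all 24 arrays, 18 with only replicates 1 and 2 and 0 with only replicates 3 and 4, where 209 had an unadjusted p under 0.05. Without single arrays it was 13 to 49. Both fits on pairs of replicates, the block of pairs and the weighting by muscle were chosen after seeing the data. With the replicate number as a block it was 55 (53 higher and 2 lower), 38 of them among the 41, and not every array correlated best with its own number. Under this block the call of Emb was lost (adjusted p = 0.0589), and Myog (0.0374), Sgk1 (0.0123) and Ampd3 (0.00801) passed. The late-minus-early count of 0 became 1 with the floor at the 40th percentile, 7 with the replicate block, and 0 to 1 without single arrays (1 without replicate 3 at 6 months). The EDL-minus-EOM count of 19 became 29 with array weights, 43 with the replicate block, 28 with the block of pairs, and 13 to 27 without single arrays. The size rule's count of 92 became 175 with an average change over 1.5, and 103 to 138 without single arrays. The cause of these shifts was not tested.

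All 23 called genes kept their direction in all 28 alternatives, and 6 of them (Ankrd1, Chrna1, Gadd45a, Fst, Slc29a1 and Ctsl) were called in all 25 planned ones. Over all 93 named genes 1 value reversed, that of Myl2, at 0.22 with only replicates 3 and 4 beside -0.29 with all arrays. With 4 pools a group, moderate changes may be missed, and signals under the floor have no order.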

Other observations

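Some gene groups held differences that did not pass the test. Among clock genes Nr1d1, a repressor of the clock's positive limb, averaged 1226 ± 243 units at 30 months and 1962 ± 481 at 18 months (log2 change -0.67, SE 0.24, adjusted p = 0.453), and Dbp, a clock output factor, 1085 ± 625 units at 30 months and 1364 ± 621 at 18 months (log2 change -0.41, SE 0.37, adjusted p = 0.938). The median of the 9 clock genes stood at -0.04 in replicates 1 and 2 alone and at -0.42 in replicates 3 and 4 alone. Among small heat shock proteins Hspb1 averaged 14130 ± 2004 units at 30 months and 10210 ± 2165 at 18 months (log2 change 0.48, SE 0.17, adjusted p = 0.453), and Cryab 21570 ± 4298 units at 30 months and 15940 ± 3469 at 18 months (log2 change 0.45, SE 0.19, adjusted p = 0.662). Another probe set of Cryab showed no such difference, with 17920 ± 2953 units at 30 months and 17360 ± 1518 at 18 months (log2 change 0.03). Among matrix genes Postn, periostin, averaged 157 ± 114 units at 30 months and 48.9 ± 29.6 at 18 months (log2 change 1.48, SE 0.55, adjusted p = 0.469). Kcnn3, a calcium-activated potassium channel that rat muscle is known to regain after denervation, averaged 399 ± 148 units at 30 months and 168 ± 39 at 18 months (log2 change 1.20, SE 0.40, adjusted p = 0.383).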
